A study of Mus musculus with 28 samples.

Results

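The genes described here encode the proteins of the cytosolic ribosome, the proteins of the mitochondrial ribosome, and the factors that start and extend protein synthesis, measured in whole mouse brain before and after a nicotine-induced seizure. A probe set, the group of short oligonucleotides that reports 1 transcript on the array, was taken when its single gene symbol began with Rpl or Rps followed by a digit, with Rplp, Mrpl, Mrps or Eef, or with Eif followed by a digit. Eif1a and the Rps6k kinases were left out. These names gave 188 probe sets for 143 genes among 12422 probe sets on the array. By the rule on names the factors also take in enzymes that modify them, such as Eef1akmt1. The cytosolic ribosome had 48 probe sets for 34 genes, the mitochondrial ribosome 76 for 61 genes, and the translation factors 64 for 48 genes. A further 45 probe sets with matching names were paired with several genes and were not used.

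Whole-brain RNA of 28 mice was measured on Affymetrix U74Av2 arrays, with 1 array for each mouse. Seized mice were taken 1 hour after nicotine, given into the abdomen, had caused a seizure, and untreated mice received no nicotine. The seized groups held 3 wild-type, 5 alpha7 +/T and 4 beta4 null mice. The untreated groups held 6 wild-type, 5 alpha7 +/T and 5 beta4 null mice. The alpha7 +/T mice are heterozygous for the L250T form of the alpha7 subunit of the nicotinic acetylcholine receptor, the ion channel that nicotine opens, and mice called beta4 null have no beta4 subunit. All groups were on the C57BL/6J background and none had been injected without a seizure, so nicotine, injection and handling are part of each comparison of seized with untreated mice. The dose was set for each genotype to bring about similar seizures, so genotype and dose differ together among the seized mice. The seized mice were 7 or 8 weeks old in the wild-type and beta4 null groups and 8 weeks old in the alpha7 +/T group. Among untreated mice, 3 of 6 wild-type, 4 of 5 alpha7 +/T and 1 of 5 beta4 null mice were 6 weeks old, and the others were 7 to 9 weeks old. Replicates are separate animals.

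Protein synthesis in the cytosol starts when the small ribosomal subunit, loaded with the initiator tRNA by the GTP-binding factor eIF2, is brought to the capped end of an mRNA by the eIF4 factors and the large scaffold eIF3. Elongation factors of the eEF1 and eEF2 families then deliver each aminoacyl-tRNA and move the ribosome along. Neurons control these steps strongly, through kinases that act on eIF2 and through proteins that sequester the cap-binding protein, and a separate set of ribosomes inside mitochondria makes a few subunits of the respiratory chain. Many mRNAs for cytosolic ribosomal proteins start with a tract of pyrimidines that couples their translation to nutrient signalling, so their output can change without a change in mRNA level.

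Of the 188 probe sets, 136 exceeded the median signal of their own array in at least 3 arrays and were tested. These were 29 of 48 for the cytosolic ribosome, 64 of 76 for the mitochondrial ribosome and 43 of 64 for the factors, and they stood for 25, 56 and 39 genes. Probe sets for Eif4e, the cap-binding protein, Eif4ebp1, which binds it, the eIF2 kinases Eif2ak2 and Eif2ak4, and the eEF2 kinase Eef2k did not exceed that level and were not tested. Eif2s1, Eif4g1 and Rps6 had no probe set with a single symbol and were not analysed here. In the whole brain, fewer cells of a type and less RNA per cell cannot be told apart.

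The arrays fell into 2 classes that bear on every result below. In 9 arrays the log2 ratio of the 3 prime to the 5 prime Gapdh control probe set lay from -0.48 to 0.096, while the remaining 19 arrays had values from 1.13 to 2.57. The 9 low-ratio arrays came from 3 seized and 2 untreated alpha7 +/T mice and from 2 seized and 2 untreated beta4 null mice, and none from a wild-type mouse. Titles carry 1 of 2 prefixes: every alpha7 +/T mouse has LT, every beta4 null mouse has B4, and wild-type mice have both. Rank correlations between arrays of a group ran from 0.84 to 0.98.

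No member of the translation machinery passed the test for a seizure effect averaged over genotypes, and the class medians lay near 0. Averaged over the 3 genotypes, 0 of the 136 probe sets passed the test (limma, Benjamini-Hochberg adjusted over 7350 probe sets, threshold 0.05), where 0.408% of all probe sets passed (0.327% higher and 0.0816% lower in seized mice). At an unadjusted p under 0.05 there were 10 members, or 7.35%, against 8.64% of all probe sets. The median log2 change was 0.019 for the cytosolic ribosome, 0.018 for the mitochondrial ribosome and 0.067 for the factors, beside 0.012 for all probe sets. The smallest p among the members belonged to the 94327_at probe set of Mrps18a, a small-subunit protein of the mitochondrial ribosome, with a log2 change of 0.29 ± 0.10 (SE, limma, adjusted p = 0.367) and 12 of 12 seized mice above the untreated mean of their genotype. The other 3 probe sets of Mrps18a had 0.057, 0.015 and -0.026. The next was the 100711_at probe set of Rpl10a, a large-subunit protein of the cytosolic ribosome, with 0.22 ± 0.083 (limma, adjusted p = 0.438) and 11 of 12 seized mice above, while its second probe set had 0.0034.

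**Figure D1:**
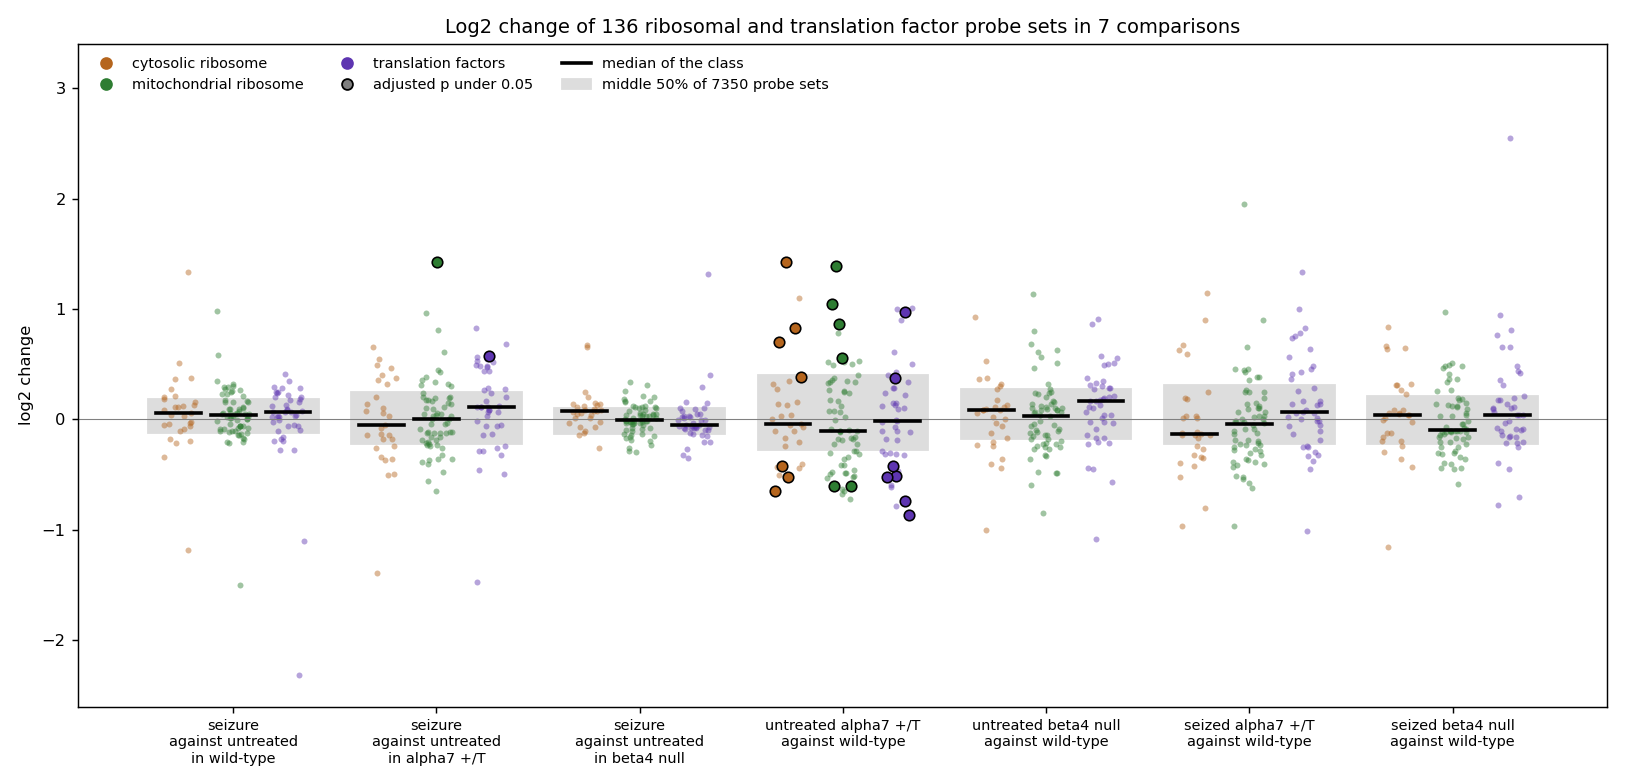
Log2 change of each of the 136 tested probe sets (vertical axis) in 7 comparisons (horizontal axis), by class; outlined points passed the test, black bars are class medians, and grey boxes span the middle 50% of all 7350 probe sets. Most points lie within or near the grey boxes, 20 outlined points stand in the comparison of untreated alpha7 +/T with wild-type mice and 2 in that of seized with untreated alpha7 +/T mice.

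In wild-type mice the seizure moved 0 members past the threshold, with 0.0544% of all probe sets called, and 4 members (2.94%) reached an unadjusted p under 0.05, beside 4.24% of all probe sets. Seized and untreated wild-type mice did not overlap in 5 members, or 3.68%, beside 4.23% of all probe sets. Rpl22, a large-subunit protein of the cytosolic ribosome, had the smallest p. Its probe set 92856_at had signals of 67.6, 62.3 and 69.0 in the seized wild-type mice, against a lowest of 16.1, a median of 24.6 and a highest of 51.7 in the 6 untreated wild-type mice. All 3 seized mice lay above all untreated mice, yet the log2 change of 1.34 ± 0.45 had an adjusted p of 0.824 (limma). The second probe set of Rpl22, 92857_at, did not correlate closely with the first within groups (Pearson r = 0.19 over 28 arrays).

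The second smallest p in wild-type mice belonged to 98086_r_at, 1 of 3 probe sets of Rps28, a small-subunit protein. It had 16.1, 20.1 and 9.65 in the seized wild-type mice, against a lowest of 19.5, a median of 32.3 and a highest of 58.9 in the untreated wild-type mice (log2 change -1.18 ± 0.45, limma, adjusted p = 1.00). The other 2 probe sets of Rps28 had log2 changes of -0.21 and -0.196, so the probe sets of this gene gave different sizes.

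Among alpha7 +/T mice, 2 members rose after the seizure and 0 fell, or 1.47% of the members, where 2.80% of all probe sets were called (1.71% higher and 1.09% lower). An unadjusted p under 0.05 was reached by 32 members (23.5%), beside 18.4% of all probe sets, and 2 members did not overlap (1.47%), beside 2.95%. Mrpl50, a large-subunit protein of the mitochondrial ribosome, had signals of 138, 153, 86.1, 53.1 and 44.4 in the seized alpha7 +/T mice, against 27.9, 32.02, 33.3, 17.1 and 60.5 in the untreated alpha7 +/T mice. The groups overlap because untreated mouse 5, the only untreated alpha7 +/T mouse of 8 weeks, lies at 60.5. The log2 change was 1.42 ± 0.37 (limma, adjusted p = 0.0361), a 2.68-fold rise with 5 of 5 seized mice above the untreated mean. The second probe set of Mrpl50, 160381_at, had a change of 0.61 (adjusted p = 0.227).

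Eif3m, a subunit of the eIF3 scaffold, had 427, 432, 368, 209.7 and 358 in the seized alpha7 +/T mice, against 246, 215, 179, 228 and 316 in the untreated alpha7 +/T mice. Seized mouse 4 lies below 4 of the 5 untreated mice and the other 4 seized mice lie above all untreated ones. Its log2 change was 0.58 ± 0.16 (limma, adjusted p = 0.0493). These calls depend on single mice: 19 members (14%) passed without untreated alpha7 +/T mouse 5, where 9.12% of all probe sets did. With untreated alpha7 +/T mouse 1, 2 or 3 or seized alpha7 +/T mouse 3 left out 0 passed, where 2.05%, 1.28%, 1.05% and 1.95% of all probe sets did. Without seized alpha7 +/T mouse 1 or 2, 0 members rose and 1 and 2 fell, where 1.62% and 3.1% of all probe sets passed. With each of the 28 mice left out in turn, Mrpl50 kept its call in 21 cases and Eif3m in 3.

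**Figure D2:**
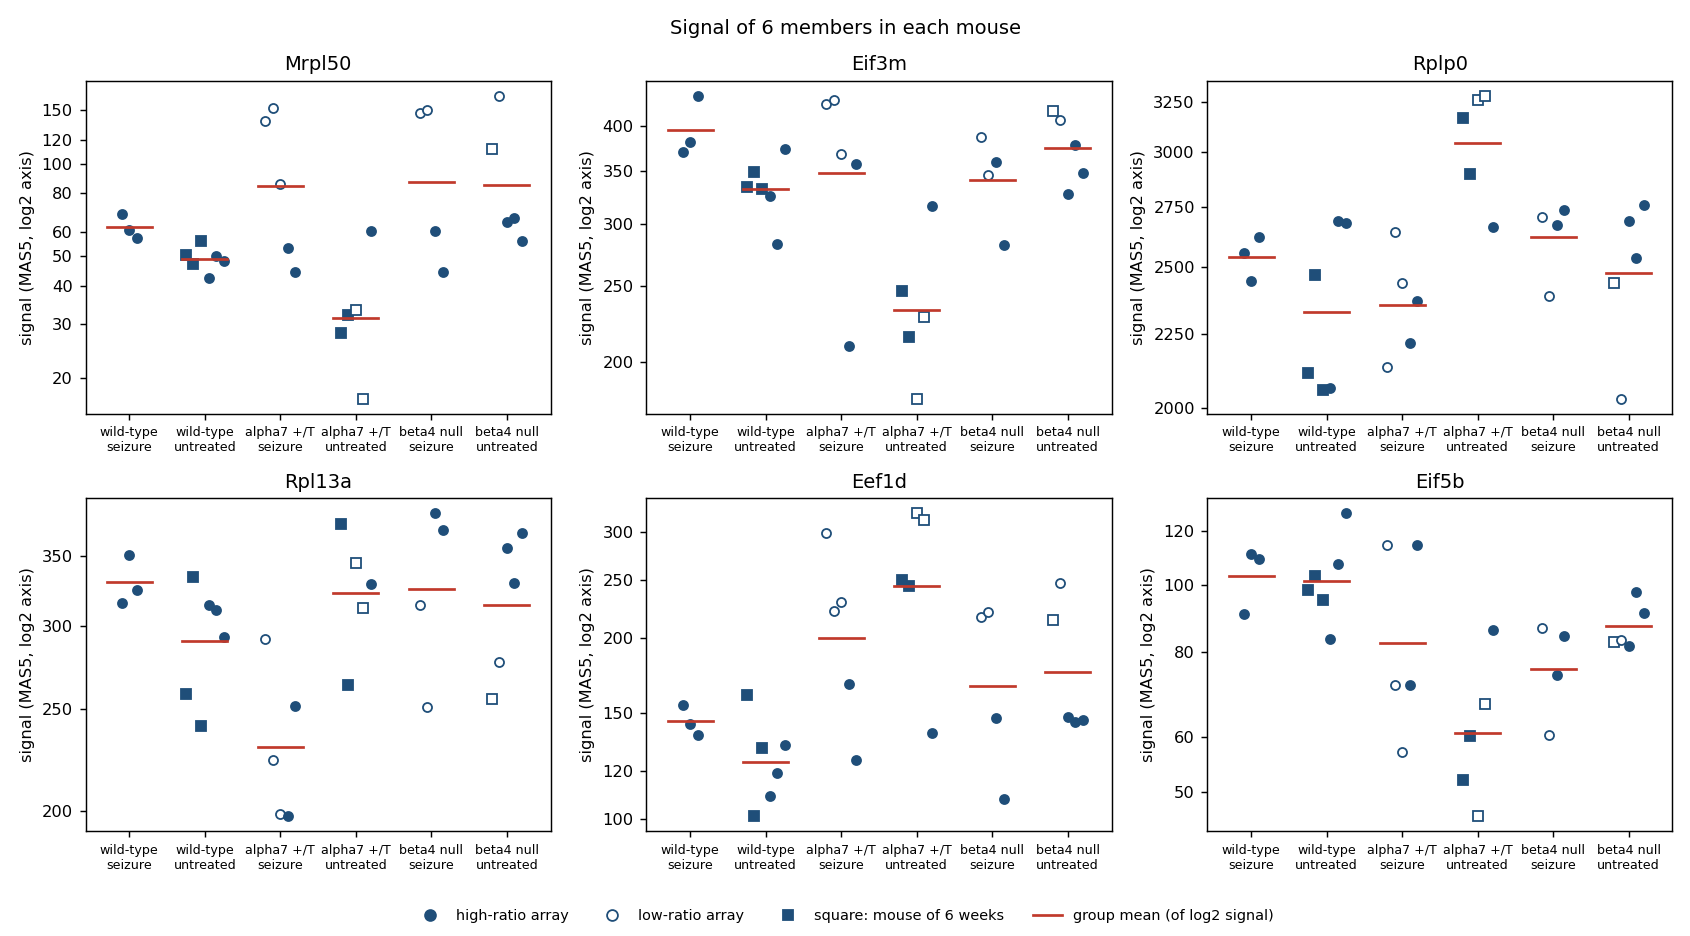
Signal on a log2 axis of Mrpl50, Eif3m, Rplp0, Rpl13a, Eef1d and Eif5b in each of 28 mice by group, with the mean of the log2 signal as a bar, low-ratio arrays as open symbols and mice of 6 weeks as squares. In untreated alpha7 +/T mice the single mouse of 8 weeks stands apart from the 4 squares for Mrpl50 (60.5), Eif3m (316), Eef1d (139) and Eif5b (86.0), on the side of the wild-type mice.

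Outside the calls, 3 cytosolic ribosomal probe sets lay just outside the threshold with lower signals after the seizure. Rplp0, which encodes a protein of the stalk where elongation factors dock, had 2133, 2644, 2437, 2216 and 2371 in the seized alpha7 +/T mice, against 3167, 2897, 3260.2, 3280.3 and 2665 in the untreated alpha7 +/T mice. All seized mice were below all untreated ones (log2 change -0.37 ± 0.11, limma, adjusted p = 0.055). Rpl13a, a large-subunit protein that is also often used as a reference transcript, had 291, 223, 198, 198 and 252 in the seized alpha7 +/T mice and 376, 264, 345, 313 and 329 in the untreated ones (-0.49 ± 0.14, adjusted p = 0.0574). The r-suffixed probe set of Rps28 had -1.39 ± 0.41 (adjusted p = 0.0586), while its other probe sets had -0.18 and -0.077.

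The promoter-proximal sequences of the members that these comparisons turn on are given here to show which of them hold the pyrimidine letters CTTTC. These letters do not define the tract described above. Other pyrimidine runs, such as those in the Eif3m and Eif2s3x windows, are not marked. Each window runs from 50 bases before to 20 bases after the annotated start (RefSeq, GRCm38.p6), on the strand of the gene, and capitals mark CTTTC, searched with its reverse complement GAAAG.
Rplp0, chr5:115559417-115559486, plus strand: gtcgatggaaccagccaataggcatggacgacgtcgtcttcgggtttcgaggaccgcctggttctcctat
Rpl13a, chr7:45128726-45128795, minus strand: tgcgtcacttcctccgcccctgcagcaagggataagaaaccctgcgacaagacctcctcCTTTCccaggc
Mrpl50, chr4:49521064-49521133, minus strand: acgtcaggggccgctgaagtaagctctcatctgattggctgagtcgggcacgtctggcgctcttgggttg
Eif3m, chr2:105017008-105017077, minus strand: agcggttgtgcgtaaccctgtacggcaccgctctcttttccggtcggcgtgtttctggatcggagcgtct
Eef2, chr10:81176581-81176650, plus strand: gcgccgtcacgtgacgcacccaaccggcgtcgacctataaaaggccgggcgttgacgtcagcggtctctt
Eif2s3y, chrY:1010545-1010614, plus strand: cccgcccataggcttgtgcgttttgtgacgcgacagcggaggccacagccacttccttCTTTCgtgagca
Eif2s3x, chrX:94212632-94212701, minus strand: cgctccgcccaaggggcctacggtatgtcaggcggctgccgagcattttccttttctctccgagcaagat
The 5 letters occurred in the windows of Rpl13a and Eif2s3y and in none of the other 5 printed. On either strand they occurred in 13 of 36 windows of the cytosolic ribosome (36.1%), 12 of 60 of the mitochondrial ribosome and 6 of 56 of the factors (10.7%), beside 17.0% of 32851 windows of all genes. On the strand of the gene alone the shares were 27.8%, 8.33% and 7.14%, beside 9.42% for all genes. The mitochondrial ribosome thus lay a little above all genes on either strand and a little below them on the strand of the gene. Of the 70 bases of a window, 50 lie before the annotated start and so outside an mRNA that begins there. No position was required of a match, so these shares do not measure what the mRNAs carry. Some genes have several annotated starts, and 122 of the 143 genes had at least 1. A match is a description of these letters, not a site, and the tract itself was not searched for, so a window without a match may still hold one.

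The alpha7 +/T seizure comparison was split by array class, since the classes use different mice. In the 5 low-ratio arrays (3 seized, 2 untreated), 13 members rose and 1 fell, or 10.3%, where 9.28% of all probe sets were called. In the 5 high-ratio arrays (2 seized, 3 untreated) 0 members passed, where 0.177% of all probe sets were called. Each fit took its spread from all arrays of its class, 9 low-ratio or 19 high-ratio, with other genotypes among them. Mrpl50 had a log2 change of 2.35 in the low-ratio arrays (limma, adjusted p = 0.00262) and 0.36 in the high-ratio arrays (adjusted p = 0.551). For Eif3m these were 1.01 (adjusted p = 0.00495) and 0.099 (adjusted p = 0.834). Rplp0 differed by -0.45 and -0.34 and Rpl13a by -0.48 and -0.52 in the low-ratio and the high-ratio arrays. None of the 4 values passed the test within a class. Both genes already stood out over these same arrays, so the 2 classes are no separate check of them. For Rplp0 all seized mice lay below all untreated ones, which fixed its sign in each class in advance. Over the 136 members the changes in the 2 classes had the same sign in 85, with a Pearson r of 0.19 across probe sets, which are not independent of each other. That r was 0.57 for the cytosolic ribosome, 0.53 for the mitochondrial ribosome and -0.10 for the factors. The overall value and that of the factors include the sex-linked Eif2s3y, at 0.89 and -4.43, where both high-ratio seized mice are labelled female. Without Eif2s3y they were 0.38 over 135 probe sets and 0.14 over 42.

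**Figure D3:**
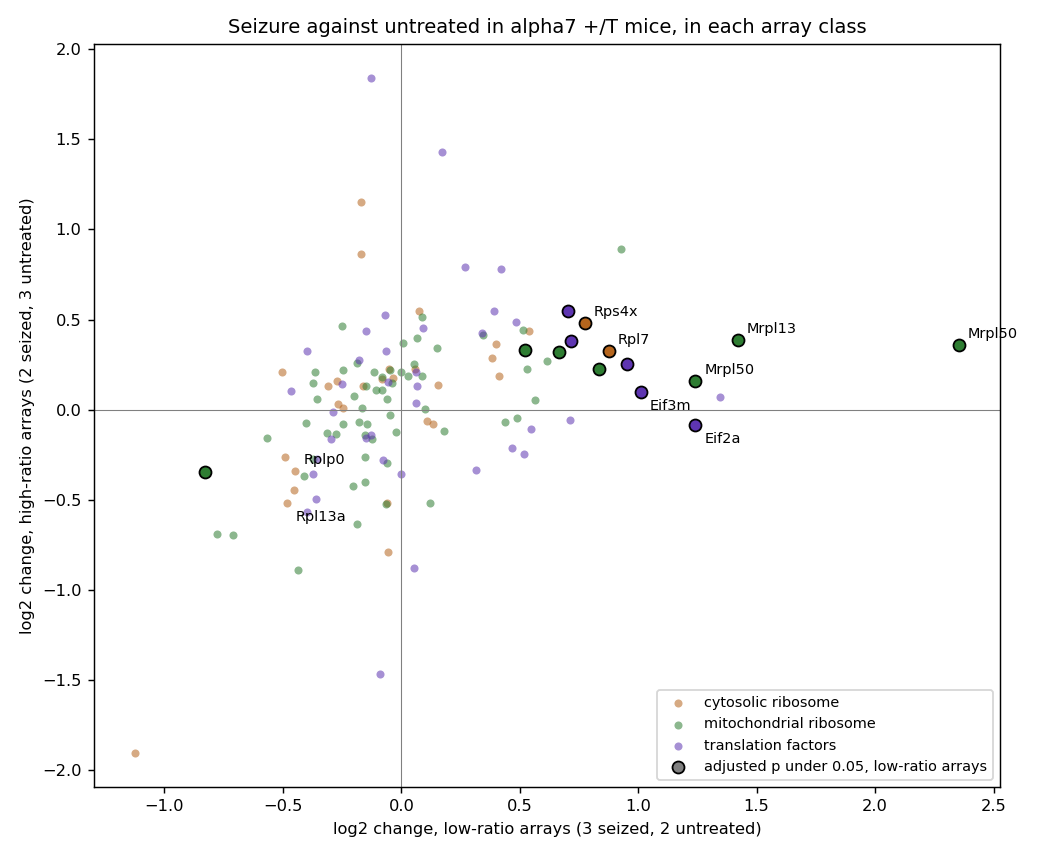
Log2 change of seized against untreated alpha7 +/T mice in the 5 low-ratio arrays (horizontal axis) and the 5 high-ratio arrays (vertical axis), 1 point per tested probe set, outlined where it passed in the low-ratio arrays; Eif2s3y, at 0.89 and -4.43, lies outside the axes. Mrpl50 lies far to the right at 2.35 and 0.36, and Rplp0 and Rpl13a lie below 0 on both axes.

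With array class as a term in the fit, 22 members passed in this comparison, 16 higher and 6 lower in seized than in untreated alpha7 +/T mice, where 13.3% of all probe sets were called. Of the cytosolic ribosome, Rpl7, Rps4x and Rps3a1 were higher (log2 0.58, 0.59 and 0.37) and Rplp0, Rpl13a and the r-suffixed Rps28 probe set lower (-0.37, -0.46 and -1.41). The eIF3 subunits Eif3a, the scaffold's largest, Eif3e and Eif3m were higher (0.54, 0.58 and 0.55) and Eif3b lower (-0.32). Eif2s3x, 1 gene of the sex-linked pair described below, was higher by 0.59, and the groups differ in sex (2 of 5 seized and 3 of 5 untreated mice labelled male). Eif2d was higher by 0.54. Eif4a2, a form of the RNA helicase of the cap-binding complex, was higher by 0.57, with an adjusted p of 0.0452 (limma). Of the mitochondrial ribosome, 7 probe sets were higher, among them Mrpl13 (0.89) and Mrpl24 (0.51), and 2 were lower, the Mrps25 probe set 104234_at (-0.68) and Mrpl12 (-0.66). Seizure and age cannot be told apart here. All seized alpha7 +/T mice were 8 weeks old and 4 of the 5 untreated ones 6 weeks, and with age as a term 0 members passed, where 0.163% of all probe sets did.

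In beta4 null mice 0 members passed and 0 reached an unadjusted p under 0.05, where 0.0136% of all probe sets passed and 1.74% reached the unadjusted level. The class medians were 0.074 for the cytosolic ribosome, -0.0091 for the mitochondrial ribosome and -0.048 for the factors, beside -0.011 for all probe sets. Groups did not overlap in 2 members (1.47%), beside 1.02% of all probe sets. Mrpl16, a large-subunit protein of the mitochondrial ribosome, had the smallest p. It had 193, 179, 133 and 145 in the seized beta4 null mice and 161, 153, 115, 109 and 108 in the untreated ones (log2 change 0.34 ± 0.17, limma, adjusted p = 1.00). Within each array class its seized mice lay above its untreated mice. It was named for its smallest p over these same mice, so the classes are no separate check of it. Rps19, a small-subunit protein, came next with -0.26 ± 0.14 (adjusted p = 1.00).

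Whether the seizure response differed between genotypes was tested by an interaction term for all 3 genotypes. It called 0 members, where 0.0272% of all probe sets were called, and 10 members (7.35%) reached an unadjusted p under 0.05, beside 7.66%. The smallest p belonged to the r-suffixed probe set of Rps28, with log2 changes of -1.18 in wild-type mice, -1.39 in the alpha7 +/T and 0.66 in the beta4 null ones (limma F test, adjusted p = 0.385). Rplp0 followed with 0.12, -0.37 and 0.083 (adjusted p = 0.406), and Rpl13a with 0.19, -0.49 and 0.051 (adjusted p = 0.414).

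Between untreated alpha7 +/T and untreated wild-type mice, 20 members passed, 10 higher and 10 lower in alpha7 +/T mice. That is 14.7% of the members, where 16% of all probe sets were called, 7.73% higher and 8.29% lower. The members' share was near that of all probe sets, and 54 members (39.7%) reached an unadjusted p under 0.05, beside 35.1%. Of the cytosolic ribosome 4 rose and 3 fell of 29, of the mitochondrial ribosome 4 rose and 2 fell of 64, and of the factors 2 rose and 5 fell of 43. The class medians were -0.039, -0.11 and -0.012 in that order, beside 0.063 for all probe sets. When each array was centred on its median signal, the median of all probe sets moved by -0.24. Then 3 members were higher and 27 lower (22.1%), where 19.6% of all probe sets were called. Of all calls 13.3% were higher, in place of 48.3%. Under quantile normalization the median moved by -0.091, with 6 members higher and 9 lower, where 13.9% of all probe sets were called. Of those calls 36.6% were higher. Direction in this comparison is therefore relative to the scaling.

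Among the factors, Eef1d, the nucleotide-exchange subunit of the eEF1 complex, rose. It had 249.5, 244, 323, 315 and 139 in the untreated alpha7 +/T mice, against a lowest of 101, a median of 125 and a highest of 161 in the untreated wild-type mice (log2 change 0.97 ± 0.23, limma, adjusted p = 0.0137). Mouse 5, of 8 weeks, lies within the wild-type range and the other 4 lie above it. Eif5b, the GTPase that joins the ribosomal subunits, fell. It had 51.9, 60.2, 46.1, 67.0 and 86.0 in the alpha7 +/T mice, against a lowest of 83.4, a median of 101 and a highest of 127 in the wild-type mice (-0.74 ± 0.18, adjusted p = 0.0156).

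Of the eIF3 subunits, 3 fell and 1 rose out of 10 tested. Eif3j1, a loosely bound subunit that helps eIF3 onto the ribosome, fell by 0.86 on the log2 scale, with 203, 474, 231, 146 and 448 in the alpha7 +/T mice, against 394 to 696 (median 459) in the wild-type mice. Eif3m fell by 0.51 and Eif3a by 0.42 (adjusted p = 0.0312 and 0.0415). Eif3b, a core subunit, rose, with 519.9, 625.1, 589, 591 and 437 in the alpha7 +/T mice, against a lowest of 382, a median of 418 and a highest of 507 in the wild-type mice (0.37 ± 0.11, adjusted p = 0.0283). Eif2b1, a subunit of the exchange factor that recharges eIF2, fell by 0.52 (adjusted p = 0.0332).

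Of the cytosolic ribosome, Rplp0 rose by 0.39 ± 0.10 (limma, adjusted p = 0.0198). Its untreated alpha7 +/T values are those given above, and the wild-type mice had a lowest of 2058, a median of 2292 and a highest of 2692, so that only mouse 5, at 2665, lies within the wild-type range. Rps29 rose by 0.698 and Rps4l, a relative of Rps4x, by 0.83, the latter from an s-suffixed probe set. Rps13 rose by 1.43 from an r-suffixed probe set at low signal. That probe set lay between 35.7 and 127 in the alpha7 +/T mice and between 8.27 and 50.05 in the wild-type mice. Rps4x fell by 0.64 on the log2 scale, with 2020.1, 1856, 1112, 1203 and 3054 in the alpha7 +/T mice, against 2416 to 3141 in the wild-type mice. The 4 mice of 6 weeks lay below all wild-type mice and mouse 5 within their range. Rps3a1 fell by 0.42 and Rpl7, from an s-suffixed probe set, by 0.52 (limma, adjusted p = 0.0332 and 0.0365), both with mouse 5 above the wild-type mean.

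Of the mitochondrial ribosome, Mrpl39 had 93.7, 175, 203, 114 and 85.9 in the untreated alpha7 +/T mice, against a lowest of 53.2, a median of 72.7 and a highest of 76.1 in the wild-type mice (log2 change 0.87 ± 0.30, adjusted p = 0.048). Its groups did not overlap, and neither did those of Mrps10, which did not pass (log2 change 0.53 ± 0.21, adjusted p = 0.0839). These 2 are 1.47% of the members, beside 4.75% of all probe sets. Mrpl12, which also binds the mitochondrial RNA polymerase, rose by 1.04 and Mrpl11 by 1.39 (adjusted p = 0.0264 and 0.032). The Mrps18a probe set 94326_r_at rose by 0.56, and its other 3 probe sets, with 0.402, 0.18 and -0.16, did not pass. Mrps14 and Mrps33, both small-subunit proteins, fell by 0.602 and 0.598 (adjusted p = 0.0228 and 0.0434).

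The 20 calls depended on which mice were compared. Without untreated alpha7 +/T mouse 3 there were 0, where 0.816% of all probe sets passed, and without mouse 4 there was 1, where 1.96% did. Without mouse 5 there were 49 (36.0%), where 27.8% of all probe sets passed. With the 19 high-ratio arrays alone 0 passed, where 0.0408% of all probe sets did. Against the 3 LT-prefix wild-type mice, all of them 6 weeks old, 0 passed, where 0.0816% did. The changes kept their sign in 20 of 20 in both cases, at a median of 0.74 and 0.95 times their size over all arrays. The 20 were picked over all arrays and both sets reuse mice among them, so this is no separate check of sign or size. Among mice of 7 weeks or older, which leaves 1 alpha7 +/T mouse against 3 wild-type mice, 17 of 20 kept their sign at a median of 0.29 times the size. In that setting the lone mouse is taken to vary like the other groups. Mrpl12 then had -0.0071, Rps4x 0.057 and Rpl7 0.059, and 0 passed.

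**Figure D4:**
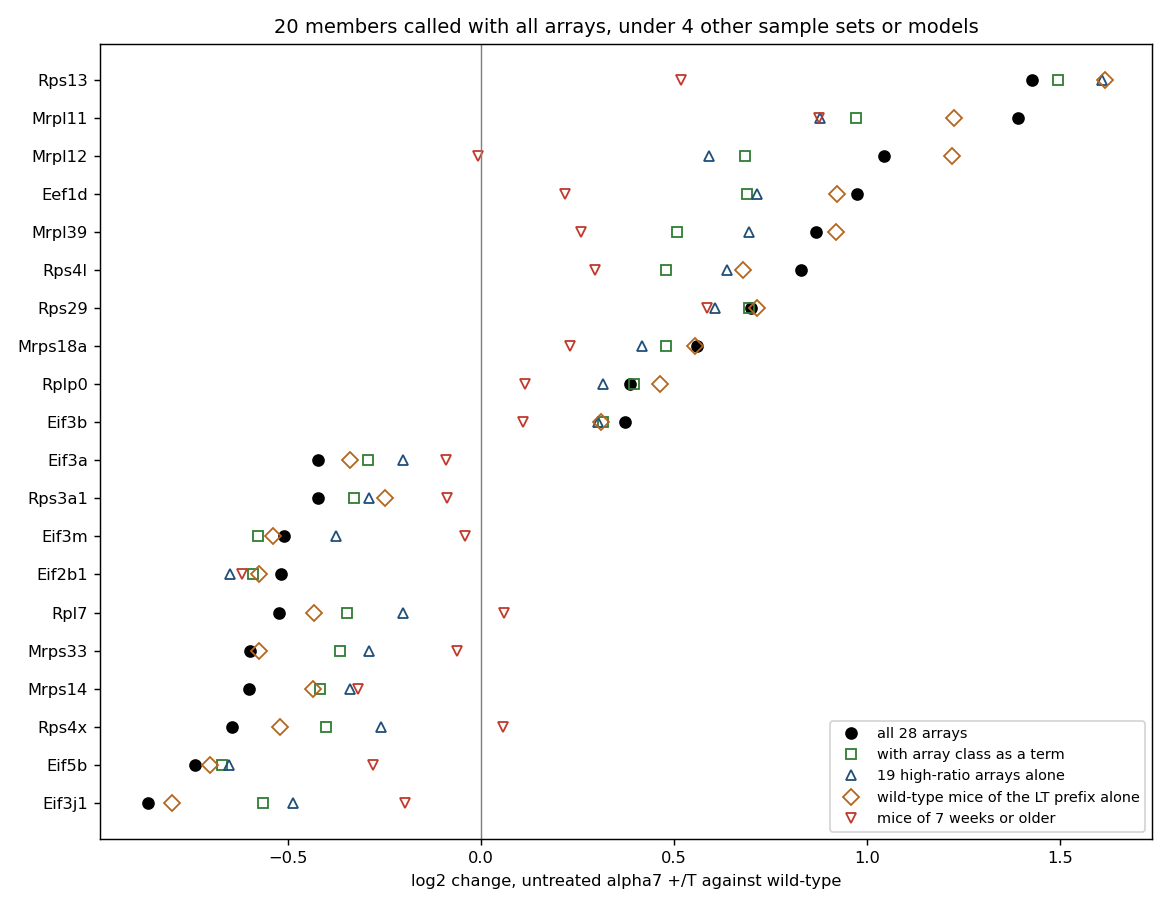
Log2 change of untreated alpha7 +/T against untreated wild-type mice (horizontal axis) for the 20 called members (1 row each), with all arrays and under 4 other sample sets or models. The LT-prefix points lie near those of all arrays, and the points for mice of 7 weeks or older lie nearest to 0 for most genes. Every setting reuses mice of the full set, over which the members were picked.

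Single markers of 3 cell types passed in this comparison too. Of 7 neuronal markers 0 passed, with a median log2 change of 0.36. Their summed signal was between 8472 and 11152 in the untreated alpha7 +/T mice and between 9145 and 11605 in the untreated wild-type mice. Of 5 oligodendrocyte markers 1 passed, Mag, higher by 1.53, while the median of the 5 was 0.095 and their lowest -0.11. Of 6 microglial markers 1 passed, C1qc, higher by 0.900, with a median of 0.43 and a lowest of -0.32. Of 6 astrocyte markers 1 passed, Gja1, lower by 0.58, while the median of the 6 was 0.094 and the highest 0.41. Oligodendrocyte sums ran from 6204 to 9878 in the alpha7 +/T mice and from 5280 to 8257 in the wild-type mice, and microglial sums from 1561 to 2518 in the alpha7 +/T mice and from 1487 to 1868 in the wild-type mice. Astrocyte sums ran from 5689 to 6743 in the alpha7 +/T mice and from 5927 to 7153 in the wild-type mice. In the seized alpha7 +/T mice the endothelial marker Cldn5 was lower by 1.26 than in untreated ones, 1 of 6 such markers, with sums between 446 and 677 in seized and between 645 and 1024 in untreated alpha7 +/T mice. The summed signal of 4 pituitary markers reached 10980.5 in 1 seized alpha7 +/T mouse, with a lowest of 259 in that group, against 244 to 326 in untreated alpha7 +/T mice. Their part in the results was not tested.

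Untreated beta4 null mice differed from untreated wild-type mice in 0 members (0.0136% of all probe sets called). At an unadjusted p under 0.05 there were 21 members, or 15.4%, against 12.9% of all probe sets, and 1 member did not overlap (0.735%), beside 1.09%. Eif3c, a core subunit of eIF3, had 1259, 1202, 979, 1043 and 1057 in the beta4 null mice, against a lowest of 706, a median of 893 and a highest of 1027 in the wild-type mice (log2 change 0.35 ± 0.12, limma, adjusted p = 0.356). Mrps11 had a change of 0.63 ± 0.23 at the same adjusted p.

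Seized alpha7 +/T mice differed from seized wild-type mice in 0 members, where 0% of all probe sets were called and 11.8% of members and 12% of all probe sets reached an unadjusted p under 0.05. Rpl13a was at 291, 223, 198, 198 and 252 in the seized alpha7 +/T mice, against 316, 351 and 325 in the seized wild-type mice, with no overlap (log2 change -0.52 ± 0.17, limma, adjusted p = 0.396). Groups that do not overlap numbered 13 of 136 members (9.56%), beside 8.73% of all probe sets. The second probe set of Rpl10a, 161327_f_at, had 586, 194, 711, 386 and 699 in the seized alpha7 +/T mice, against 789, 1022 and 935 in the seized wild-type mice (-0.97 ± 0.28, adjusted p = 0.396), while its first had 839, 1103, 900.5, 755 and 877 in the seized alpha7 +/T mice, against 812, 869.7 and 929 in the seized wild-type mice.

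Seized beta4 null mice differed from seized wild-type mice in 0 members, where 0.0136% of all probe sets were called, and 6 members (4.41%) reached an unadjusted p under 0.05, beside 4.42%. Groups did not overlap in 14 members (10.3%), beside 9.97% of all probe sets. Eef1a2, the form of the aminoacyl-tRNA carrier eEF1A that mature neurons use, had 4195, 4361, 6218 and 2407 in the seized beta4 null mice, against 6610.1, 8249 and 6152 in the seized wild-type mice (log2 change -0.77 ± 0.31, limma, adjusted p = 0.763). Rpl22 had 39.0, 30.5, 28.01 and 23.7 in the seized beta4 null mice, against 67.6, 62.3 and 69.0 in the seized wild-type mice, with no overlap (-1.15 ± 0.48, adjusted p = 0.763). The seized wild-type mice are those that stood high for Rpl22 against untreated ones, and its second probe set had 0.64.

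More members passed between the array classes than in any comparison of the groups. With a class term beside the 6 group means, 80 of 136 members passed (58.8%), 36 higher and 44 lower in the low-ratio arrays, where 52.1% of all probe sets were called (26.7% higher and 25.4% lower). Among the factors 16 were higher and 10 lower, among the mitochondrial ribosome 15 and 23, and among the cytosolic ribosome 5 and 11. The median log2 difference was 0.14 for the factors, -0.080 for the mitochondrial ribosome and -0.11 for the cytosolic ribosome, beside 0.011 for all probe sets.

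Eef2, the factor that moves the ribosome by 1 codon, marked the classes without overlap. Its signal was 1537, 1881 and 1729 in the low-ratio arrays and 743 and 535 in the high-ratio arrays of seized alpha7 +/T mice, and 1922 and 2266 against 693, 679 and 551 in the untreated ones. The low-ratio arrays of beta4 null mice lay between 1813 and 1905 against 624 to 745 in their high-ratio arrays, and the wild-type arrays, all high-ratio, between 474 and 673 (log2 difference 1.53 ± 0.084, limma, adjusted p = 9.74e-14). Eef1a1, the widely expressed eEF1A gene, was higher by 0.86 and Eif6, which keeps free large subunits from joining, by 1.28. Eif4b, a helicase cofactor, was higher by 0.85 and the 101072_at probe set of Eif4ebp2, a binding protein of eIF4E, lower by 0.55.

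Among probe sets taken by a ribosomal protein symbol, the f-suffixed one of Rps28 was lower by 0.75, its 100758_at by 0.87 and Rps24 by 0.65. Mrps25 (102128_f_at), Mrps36 and Mrpl18 were lower by 1.03, 1.00 and 0.83. By its f-suffixed probe set, 93787_f_at, Mrpl18 had 798, 749 and 724 in the low-ratio arrays and 1524 and 1484 in the high-ratio arrays of seized alpha7 +/T mice. Its other tested probe set, 93786_i_at, was dimmer, from 221 to 284 in the seized alpha7 +/T mice (Pearson r = 0.58 with the first within groups). Mrpl27, a bright large-subunit protein like Mrpl18, had 441, 392 and 502 in the low-ratio arrays and 806 and 613 in the high-ratio arrays of the same mice. Among alpha7 +/T mice, Rps24 ran from 3289 to 4903 in the low-ratio and from 5686 to 8125 in the high-ratio arrays without overlap, while Rpl41, from 5222 to 9097 and from 8566 to 11608, overlapped. Neuronal markers also differed, with 5 higher and 2 lower of 7 and a median of 0.80. Microglial markers had 4 higher and 2 lower of 6 (median 0.795), and oligodendrocyte markers 3 and 1 of 5 (0.50). Astrocyte markers had 1 higher and 2 lower of 6 (-0.021), and choroid plexus markers 1 and 3 of 4 (-0.54). Endothelial markers had 2 higher and 0 lower of 6 (0.19), and blood markers 1 and 1 of 2. Of 4 pituitary markers 0 passed. Between the classes 52.1% of all probe sets were called. RNA quality, labelling and scan were not recorded in the labels, and the part of each in these differences was not tested. Because wild-type mice have high-ratio arrays alone, array class and genotype are partly confounded in comparisons of mutant with wild-type mice.

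The factor families were then set side by side for the seizure comparisons. Of 10 eIF3 probe sets, the median log2 change was 0.23 in wild-type mice, 0.27 in the alpha7 +/T and -0.070 in the beta4 null ones, of which Eif3m in alpha7 +/T mice alone passed. Of 10 probe sets for eIF2 and its exchange factor, the medians were 0.077, 0.25 and 0.012 with 0 called, of 7 for eIF4 they were 0.028, 0.12 and -0.063 with 0 called, and of 5 elongation factors -0.023, 0.086 and -0.078 with 0 called. The 6 probe sets of eIF1, eIF5 and eIF6 had medians of 0.033, 0.047 and 0.0056.

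The regulators that act through phosphorylation did not pass in any seizure comparison. Eif2ak3, the eIF2 kinase of the endoplasmic reticulum, had log2 changes of -0.27, 0.11 and -0.32 after the seizure in wild-type, alpha7 +/T and beta4 null mice. Eif2ak1, the haem-regulated kinase, had -0.198, -0.33 and -0.068, and Eif4ebp2 had -0.11, -0.056 and -0.097 by 101072_at and 0.19, 0.68 and 0.40 by 94353_at. None passed, and their phosphorylation was not measured. After the seizure in alpha7 +/T mice Eef1a1 had 0.48 (limma, adjusted p = 0.378) and Eef1a2 -0.46 (adjusted p = 0.341). Neither passed, and the difference between these genes was not tested. Between the array classes Eef1a1 differed by 0.86, and Eef1a2 by -0.38 without passing (adjusted p = 0.0588).

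Other genes of protein synthesis gave a like picture. After the seizure averaged over genotypes, 0 of 21 tRNA synthetase genes, 0 of 34 ribosome assembly genes, 0 of 21 subunits and factors of RNA polymerases I and III, 0 of 7 release and recycling factors and 0 of 6 mitochondrial translation factors passed. Of 13 genes of the TOR pathway, which links nutrients to translation, Ddit4 alone passed, with a rise of 0.62 on the log2 scale (limma, adjusted p = 0.000813), and Ddit4 is known to restrain that pathway. In alpha7 +/T mice Npm1 and Gtpbp4, nucleolar proteins of ribosome assembly, rose by 0.60 and 0.63, and Btf3, which binds nascent chains, by 0.56 (adjusted p = 0.0412, 0.0222 and 0.0184).

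The same nucleolar genes were lower in untreated alpha7 +/T than in untreated wild-type mice, Npm1 by 0.57 and Gtpbp4 by 0.43, and the comparisons share the untreated alpha7 +/T mice. In that comparison 16% of all probe sets were called. Of the 34 assembly genes 3 rose and 5 fell there, the others being Rrp9 (0.97), Fbl, the methyltransferase of ribosomal RNA (1.00), and Imp4 (1.01), which rose, and Nop10 (-0.59), Emg1 (-0.44) and Nip7 (-0.74), which fell. Of the polymerase genes 1 rose and 4 fell, among them Rrn3 (-0.51), which recruits RNA polymerase I. Of the synthetases Sars (0.47) and Tars (1.27) rose. Of the TOR pathway 3 rose and 3 fell, with Pdcd4, an inhibitor of the eIF4A helicase, lower by 0.79 (adjusted p = 0.012).

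Genes with several tested probe sets numbered 13, and their probe sets often disagreed. In seized against untreated alpha7 +/T mice the signs differed in 7 of the 13 genes, between untreated alpha7 +/T and wild-type mice in 4, and in 0 genes did all probe sets pass in either comparison. After subtracting the group means, Pearson r over 28 arrays between probe sets of a gene ran from -0.31 for a pair of Mrps18a probe sets to 0.98 for a pair of Rps28 probe sets. It was -0.19 for Rpl10a, -0.13 for Mrps25, 0.50 for Mrpl50 and 0.86 for Eif2b5. Ribosomal protein genes have many processed pseudogenes, and probe sets with f, r or s suffixes can match several sequences, so values of such sets are uncertain.

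The sex-linked pair Eif2s3y and Eif2s3x, which encode the gamma subunit of eIF2 from the Y and X chromosome, were the members that tracked labelled sex. With a sex term beside the group means 2 members passed, where 0.0544% of all probe sets did (0.0272% higher and 0.0272% lower in males). In the 19 high-ratio arrays alone 0 passed. Eif2s3y had a lowest of 7.46, a median of 74.4 and a highest of 131 in the 15 mice labelled male, against a lowest of 1.13, a median of 2.61 and a highest of 89.1 in the 13 labelled female (log2 difference 4.03 ± 0.54, limma, adjusted p = 0.000313). Eif2s3x had a lowest of 519, a median of 878 and a highest of 1075.5 in mice labelled male, against a lowest of 1010.5, a median of 1292 and a highest of 1581 in mice labelled female (-0.55 ± 0.079, adjusted p = 0.00065).

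In 2 mice, both with high-ratio arrays, Eif2s3y lay on the other side from the label. Untreated wild-type mouse 5, labelled female, had 89.1 for Eif2s3y and, for Eif2s3x, 1010.5, the lowest among mice labelled female. Untreated beta4 null mouse 3, labelled male, had 7.46 for Eif2s3y and 852 for Eif2s3x. The probe set of Eif2s3y is f-suffixed. Because groups hold unequal shares of males (1 of 3 seized and 3 of 6 untreated wild-type mice, for example), its log2 change of -2.31 ± 1.70 after seizure in wild-type mice (adjusted p = 1.00) stands beside that imbalance.

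**Figure D5:**
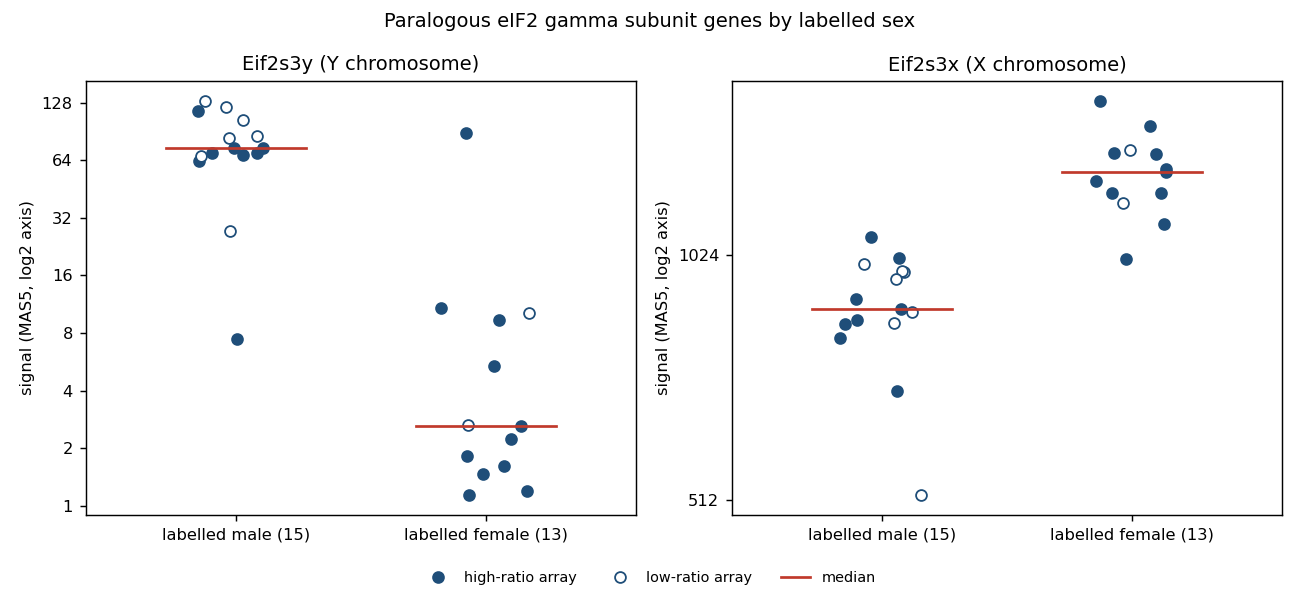
Signal on a log2 axis of Eif2s3y (left) and Eif2s3x (right) in 15 mice labelled male and 13 labelled female, with the median as a bar and low-ratio arrays as open circles. For Eif2s3y 1 mouse labelled female sits at 89.1 among the males, and 1 labelled male sits at 7.46.

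Within groups, members of the cytosolic ribosome varied together only weakly. After subtracting group means the median pairwise Pearson r over 28 arrays was 0.072 for the cytosolic ribosome, 0.033 for the mitochondrial ribosome and 0.014 for the factors, beside -0.0009 for all probe sets. In the 19 high-ratio arrays it was 0.19 for the cytosolic ribosome, 0.052 for the mitochondrial ribosome and 0.013 for the factors. Rpl41, Rps3a1 and Rps18 followed the mean of the other cytosolic members most closely (r = 0.76, 0.73 and 0.65), and Rpl7l1 and Rps4l ran against it (-0.62 and -0.62). The non-members most like the cytosolic mean, over 28 arrays, were Acsf3 (r = 0.91), Hcfc1r1 (0.84), Cdk11b (0.82), Zwint (0.80) and Mgst3 (0.79). All of these values share the arrays, their scaling and the array classes.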

How the data were processed

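Per the submitters' processing notes the authors made the deposited signal intensity values with MAS5; the sources used here do not give its version. Values are linear, were scaled by the authors to a trimmed mean of about 150 on every array (150.08 to 150.1 with 2% left out at each end), and were used as deposited after log2. Array medians ran from 43.6 to 61.1. Precision is limited by how many arrays there are. Of 12488 probe sets, 66 controls were left out; 7350 exceeded their array's median in at least 3 arrays and were tested.

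Differences were tested with limma 3.58.1 in R 4.3.3 (lmFit, eBayes with trend), 6 group means over 28 arrays, two-sided, with Benjamini-Hochberg adjustment over 7350 probe sets at 0.05. Errors are SE. The fit was tested on simulated data. Gene names come from the platform annotation.

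Members and lists were chosen with earlier results of these data known. Named were up to 12 risen and 12 fallen members per comparison by adjusted p, the 2 smallest p where none passed, 3 bright genes per class, a fixed list of factors, up to 4 called genes per list, and disagreeing probe sets. Named after their values were seen were Eif6, Eif4b, Mrps25, Mrps36, Mrpl13, Mrpl24, Mrps10, Rpl7l1, Rps18 and the further list genes. Alternatives were other normalizations, filters, floors, a pseudocount of 16, variance models, covariates, subsets of arrays, and each mouse left out. Wild-type mice of a single prefix, the class term and the sex term were added after seeing the data.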

Additional observations from a re-analysis of the deposited data

Results flagged for a closer look

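In groups of 4 to 6 mice, the gap between the highest or lowest mouse and the next was set against the range of the group for 27 probe sets, 135 groups in all, of which 6 stood out; chance gives about 1 in 20. Eif3m was 209.7 in seized alpha7 +/T mouse 4, against 358 to 432 in the other 4 seized mice. Rplp0 was 2387 in seized beta4 null mouse 2, against 2675 to 2738 in the others. Eif3b was 507 in untreated wild-type mouse 2, against 382 to 422. Mrpl39 was 53.2 in untreated wild-type mouse 3, against 68.6 to 76.1. Eef1a2 was 3397 in untreated wild-type mouse 5, against 7201 to 9392; that mouse is labelled female and also had the Eif2s3y signal of 89.1. Eif2s3y was 2.24 in seized beta4 null mouse 3, the only one labelled female in its group, against 69.8 to 104 in the 3 labelled male.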

How the results depend on the processing

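The number of members called was recomputed under 17 alternatives and with each mouse left out. Seizure in alpha7 +/T mice gave 2 calls as reported, 7 with quantile normalization and 1 with median centring. It gave 22 with array class as a term, 4 with sex as a term and 14 in low-ratio arrays alone. In that order 1.47%, 5.15%, 0.735%, 16.2%, 2.94% and 10.3% of members were called. Of all probe sets 2.8%, 4.07%, 1.82%, 13.3%, 3.46% and 9.28% were called. The same comparison gave 0 without a filter, with age as a term, in high-ratio arrays alone and with the compared groups alone. There 1.28%, 0.163%, 0.177% and 0.0544% of all probe sets were called. Leaving out 1 mouse gave 0 (in 4 cases, untreated alpha7 +/T mouse 1 among them) to 19 (without untreated alpha7 +/T mouse 5, where 9.12% of all probe sets passed). Untreated alpha7 +/T against wild-type mice gave 20 calls as reported, 15 with quantile normalization and 30 with median centring. It gave 11 without a filter, 11 with array class, 8 with age and 5 with the compared groups alone. In that order these last shares were 5.85%, 8.09%, 5.88% and 3.68% of members. Of all probe sets 7.25%, 9.1%, 7.63% and 7.32% were called. With quantile normalization 13.9% of all probe sets were called, and with median centring 22.1% of members beside 19.6%. The comparison gave 0 with title prefix as a term, with wild-type mice of the LT prefix and in high-ratio arrays alone. There 1.39%, 0.0816% and 0.0408% of all probe sets were called. Leaving out 1 mouse gave 0 (without untreated alpha7 +/T mouse 3) to 49 (without mouse 5, where 27.8% passed). In mice of 7 weeks or older Mrpl12 had a log2 change of -0.0071, Rps4x 0.057 and Rpl7 0.059, opposite in sign to all arrays. Array weights gave 11 calls for seizure averaged over genotypes, 1 for wild-type mice and 1 for beta4 null ones, 21 for seized alpha7 +/T and 37 for seized beta4 null against wild-type mice, each 0 as reported. The shares of members were 8.09%, 0.735%, 0.735%, 15.4% and 27.2%, where 8.78%, 0.476%, 0.286%, 13.7% and 27.2% of all probe sets were called. Male against female gave 0 in high-ratio arrays alone, which hold both mice whose Eif2s3y signal went against the label. Fewer samples enter the subsets; otherwise the cause was not tested. The other comparisons stayed at 0 with each mouse left out. No paired analysis was possible because the replicate numbers were given in accession order and pair no mice across groups.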
